A study of Mus musculus with 16 samples.

Results

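Voltage-gated potassium (Kv) channels open when the membrane is depolarized and let potassium leave the neuron, which repolarizes it and limits how often it fires. Sensory neurons of the dorsal root ganglia (DRGs) use several families at once. Shaker-type Kv1 channels sit beside the nodes of Ranvier of myelinated axons and raise the threshold for firing, A-type channels inactivate quickly and delay the next action potential, Kv2 channels carry delayed-rectifier current in the soma, and KCNQ channels carry the M-current, a slow brake on repetitive firing. Lower Kv channel expression in the DRG is a well-known feature of injured sensory neurons. The genes described here are 8 of this superfamily, taken by symbol from 52636 genes in the count tables: Kcna1, Kcna2, Kcna4, Kcnb2, Kcnd3, Kcnq3, Kcns1 and Kcns3. All 8 were found, and all 8 passed the filter on low counts.

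The counts came from lumbar (L3 to L6) DRGs of 16 male C57BL/6J mice aged 3 to 4 months, with 1 mouse per library and 4 mice in each of 4 groups. In the SNI-Saline and SNI-DMI groups the common peroneal and sural branches of the left sciatic nerve were cut and the tibial branch was spared (spared nerve injury, SNI), while Sham-Saline and Sham-DMI mice had sham surgery. Treatment began 4 weeks after surgery by the study's abstract, results and supplement, while a sentence of its methods gives 4 months. The tricyclic antidepressant desipramine (DMI, 15 mg/kg, a noradrenaline reuptake blocker) or saline was injected intraperitoneally 2 times per day for 3 weeks. The sides that were collected are not stated, and the spared tibial axons and the cut axons have their cell bodies in the same ganglia. The comparisons ask which channel transcripts differ after injury and which differ with prolonged DMI.

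Reads counted on genes ran from 41194238 to 73920332 per library, and each of the 8 genes had between 1215 and 50056 counts in each mouse, so spread between mice rather than counting error set the precision. Spinal cord is named as the tissue in the labels, and DRG as the cell type. The 13 neuronal markers summed to 11210 to 14130 CPM (TMM-normalized counts, scaled to a common library size) across all mice, while 5 oligodendrocyte markers of the spinal cord summed to 2.55 to 25.8 CPM, 5 astrocyte markers to 31.3 to 54.7 CPM and 4 motor neuron markers to 1.75 to 4.96 CPM. Of 12 tested markers of injured neurons, 11 were called higher in SNI-Saline than in Sham-Saline (edgeR, adjusted p under 0.1), as were 1250 of all 21371 tested genes. The median log2 fold change of the 12 was 2.25, and the injury-induced transcription factor Atf3 was at 2.32 (SE 0.222). The sample titles end in S and a number, which is 17 to 24 in the DMI groups, 33 to 36 in SNI-Saline and 37 to 40 in Sham-Saline. What these numbers stand for is not stated. If they follow processing order, its influence on the DMI and injury comparisons and the comparisons themselves cannot be told apart.

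Of the 8 genes, 5 have a promoter window in the RefSeq sequence set (GRCm38.p6), with 6 windows in all. The 3 windows shown include those of both A-type genes among the 8, which are called lower after injury below. They also include that of the gene that moved the other way with DMI in sham mice. Each is the 250 bases before the annotated start on the gene's own strand, with CpG dinucleotides in capitals. The annotated starts of Kcna4 and Kcnd3 lie before the first base of their GENCODE models, and that of Kcns1 is the first base of its model.
Kcna4, chr2:107290339-107290588, + strand: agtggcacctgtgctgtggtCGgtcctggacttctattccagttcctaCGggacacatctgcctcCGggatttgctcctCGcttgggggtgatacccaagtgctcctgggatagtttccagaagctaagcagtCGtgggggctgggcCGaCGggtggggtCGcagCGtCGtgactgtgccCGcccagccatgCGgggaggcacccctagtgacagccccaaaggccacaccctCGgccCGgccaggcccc
Kcnd3, chr3:105451640-105451889, + strand: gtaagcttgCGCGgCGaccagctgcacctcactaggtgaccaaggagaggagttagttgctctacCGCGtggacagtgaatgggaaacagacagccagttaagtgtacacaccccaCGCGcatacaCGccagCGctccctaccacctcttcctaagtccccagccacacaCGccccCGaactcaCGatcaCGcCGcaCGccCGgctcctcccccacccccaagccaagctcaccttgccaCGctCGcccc
Kcns1, chr2:164171114-164171363, - strand: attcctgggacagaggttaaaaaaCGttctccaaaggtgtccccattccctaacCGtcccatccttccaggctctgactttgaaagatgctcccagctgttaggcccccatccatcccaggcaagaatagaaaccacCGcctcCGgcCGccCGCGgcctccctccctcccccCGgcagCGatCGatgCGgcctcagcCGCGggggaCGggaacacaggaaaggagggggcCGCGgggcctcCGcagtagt
These windows hold 14, 18 and 17 CpG dinucleotides, respectively, and the 6 windows of the 5 genes hold 8 to 23, against a median of 6 and an upper quartile of 16 over 32851 windows. A GC box (GGGCGG on either strand) was present in 4 of the 6 windows and in 32.7% of all windows. No AP-1 site (TGANTCA, in 6.75% of all windows), cAMP response element (TGACGTCA, in 1.55%) or TATA box (TATAAA, in 12.4%) was found in the 6 windows on either strand. These letters were searched only in the 250 bases before the start. None of these 4 strings of letters contains another.

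Per kilobase of exon, Kcna2 (Kv1.2) was the most abundant of the 8 transcripts and Kcnq3 (Kv7.3, an M-current subunit) the least. The median over all 16 mice, as CPM per kilobase of exon (FPKM), was 53.1 for Kcna2, 38.4 for Kcna1 (Kv1.1), 28.1 for Kcns1 (Kv9.1), 22.3 for Kcns3 (Kv9.3), 20.1 for Kcnd3 (Kv4.3), 11.0 for Kcnb2 (Kv2.2), 6.26 for Kcna4 (Kv1.4) and 4.998 for Kcnq3. Each gene lay above the next one down in every mouse, with exceptions at 2 steps. Kcna1 was above Kcns1 in 14 of 16 mice (ratio 0.672 to 1.94). The exceptions were Sham-DMI replicate 1 (22.96 against 34.2 FPKM) and SNI-DMI replicate 2 (22.9 against 27.6 FPKM). Over the saline-treated mice Kcna1 was at 36.8 to 52.6 FPKM and Kcns1 at 24.9 to 30.7 FPKM. Kcns3 was above Kcnd3 in 14 of 16 mice (ratio 0.825 to 1.44), so Kcns3 and Kcnd3 could not be ordered beyond the spread between mice. These levels depend on the exon length of the gene models, which was 2712 bases for Kcns1 and 15165 bases for Kcnb2.

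**Figure D1:**
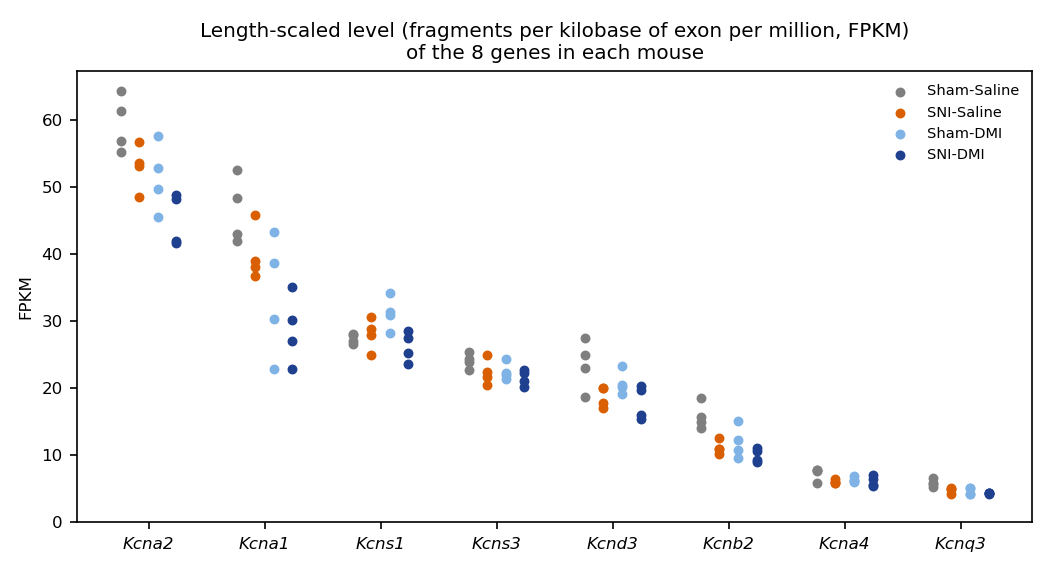
Length-scaled level (FPKM, linear axis) of each of the 8 genes, with 1 point per mouse coloured by group (4 mice in each). Kcna2 is highest at 41.6 to 64.3 FPKM, Kcnq3 is lowest at 4.18 to 6.56 FPKM, and the ranges of neighbouring genes overlap at each step but that from Kcnb2 to Kcna4.

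Within saline-treated mice, 4 of the 8 genes were lower after nerve injury, and none was higher. They were Kcnb2, Kcnd3, Kcnq3 and Kcna4, and thus included a delayed rectifier, an M-current subunit and both A-type subunits among the 8. The group means were between 17.1% and 29.4% below those of Sham-Saline. Of all 21371 genes tested, 12% were called in this comparison, and 6.18% were called lower. The median log2 fold change of the 8 genes was -0.25, with 7 of 8 below 0. For all tested genes the median was -0.00060, with 50.1% below 0. The 8 genes were chosen with earlier results of these data known, so their counts and median are only a description. A gene is called where edgeR's adjusted p was under 0.1, with no limit on the fold change.

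Kcnb2 encodes a Kv2 delayed-rectifier subunit. Its CPM was 281, 214, 239 and 228 in Sham-Saline and 167, 155, 192 and 166 in SNI-Saline, in order of replicate number. The groups did not overlap, and the lowest sham mouse was above the highest injured mouse. The log2 fold change was -0.50 (SE 0.117, 95% interval -0.75 to -0.26, adjusted p = 0.0243). This call held when any 1 mouse was left out (adjusted p 0.00679 to 0.0912). Genes that were lower in SNI-Saline with no overlap made up 7.74% of those tested, and Kcnb2 and Kcnq3 were both among them.

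Kcnq3 encodes a subunit of M-channels. Its CPM was 96.4, 78.4, 84.8 and 86.0 in Sham-Saline and 74.3, 62.8, 75.3 and 72.8 in SNI-Saline. All injured mice lay below all sham mice, and the log2 fold change was -0.28 (SE 0.0764, adjusted p = 0.0434). The call was lost without any 1 of Sham-Saline replicates 1, 3 and 4 and SNI-Saline replicates 1 and 2, with log2 fold changes of -0.28 to -0.21 and adjusted p of 0.1003 to 0.156.

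Kcnd3 and Kcna4 encode Kv4.3 and Kv1.4, the pore subunits of fast-inactivating A-type channels. Kcnd3 had a CPM of 264, 179.8, 222 and 240.1 in Sham-Saline and of 171, 164, 193 and 192 in SNI-Saline. Kcna4 had a CPM of 37.8, 28.6, 36.8 and 38.1 in Sham-Saline and of 31.5, 28.9, 28.4 and 28.3 in SNI-Saline. In both genes Sham-Saline replicate 2 was the lowest sham mouse and lay within the range of the injured mice, while the other 3 sham mice lay above all injured mice. The log2 fold change was -0.33 for Kcnd3 (SE 0.107, adjusted p = 0.0733) and -0.27 for Kcna4 (SE 0.0920, adjusted p = 0.0863). Kcnd3 no longer passed when any 1 of 5 saline mice was left out, namely replicates 1, 3 and 4 of Sham-Saline and replicates 1 and 2 of SNI-Saline (adjusted p 0.151 to 0.219). Kcna4 no longer passed in 9 of the 16 fits that left out 1 mouse, namely Sham-Saline replicate 1, 3 or 4, any 1 of the 4 SNI-Saline mice, Sham-DMI replicate 3 or SNI-DMI replicate 3 (adjusted p 0.112 to 0.222).

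The Kv1 genes of the juxtaparanode, the axon segment next to the node of Ranvier, did not pass the test after injury under saline. For Kcna2 the CPM was 766, 678, 730.3 and 658 in Sham-Saline and 638, 578, 675 and 633 in SNI-Saline, with 1 injured mouse (675) above the lowest sham mouse. The log2 fold change was -0.17 (95% interval -0.33 to -0.0068, adjusted p = 0.196). Kcna1 had a CPM of 231, 201, 252 and 206 in Sham-Saline and of 186, 182, 219 and 176 in SNI-Saline, and its interval was wider, at -0.54 to 0.10 around -0.22 (adjusted p = 0.420). Kcns1 and Kcns3 encode silent Kv9 subunits, which carry no current alone and modify Kv2 channels. Kcns3 had a log2 fold change of -0.11 (95% interval -0.24 to 0.019, adjusted p = 0.295). Kcns1 had one of 0.034 (95% interval -0.11 to 0.18, adjusted p = 0.824), with a CPM of 72.4 to 76.5 in Sham-Saline and of 67.6 to 83.3 in SNI-Saline.

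**Figure D2:**
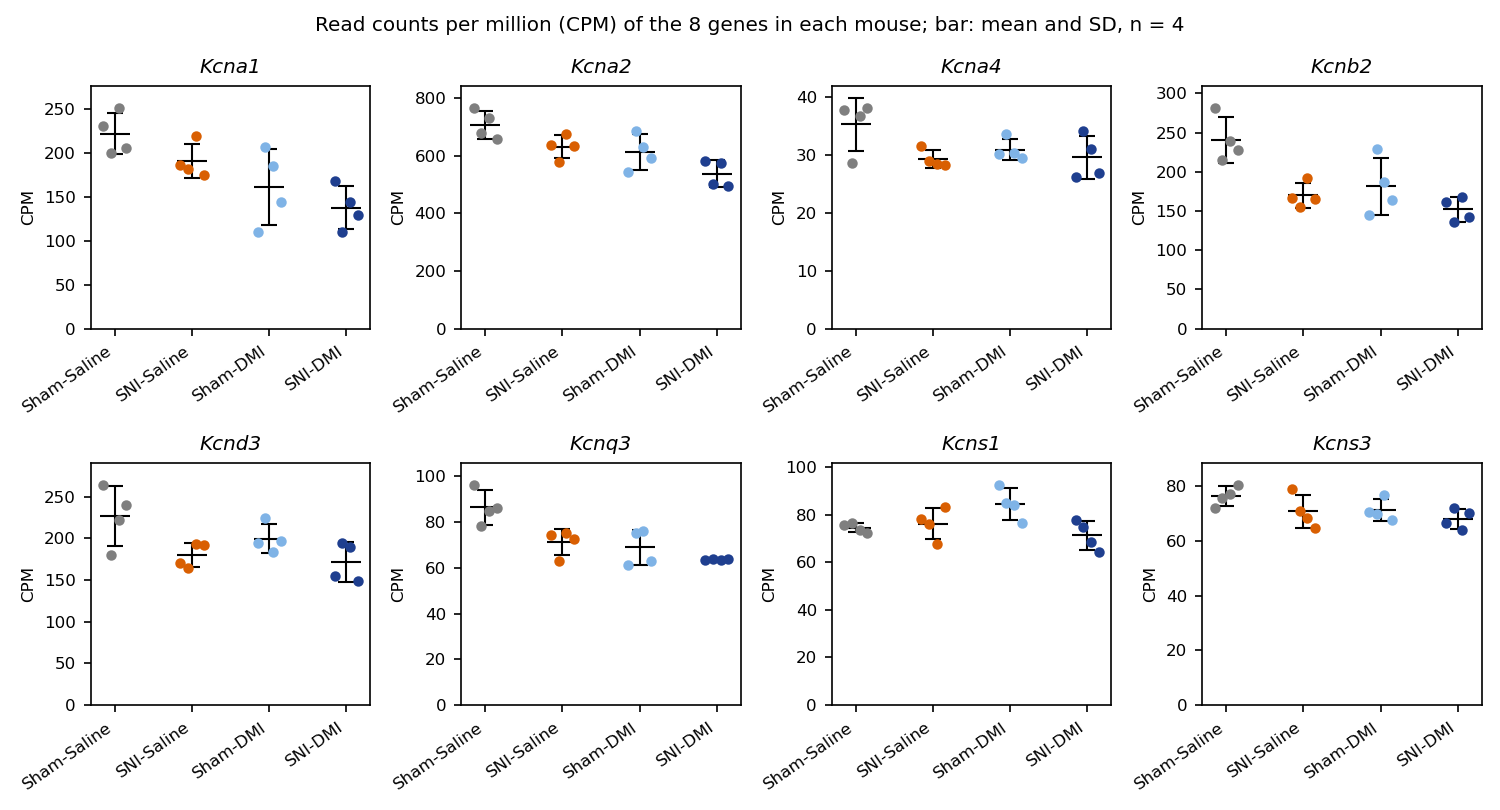
CPM of each of the 8 genes (1 panel per gene, linear axis from 0) in each mouse of the 4 groups, with the mean and SD of 4 mice in black. For Kcnb2 and Kcnq3 the 4 SNI-Saline mice lie below the 4 Sham-Saline mice, and for Kcna4 and Kcnd3 Sham-Saline replicate 2 lies among the injured mice.

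In DMI-treated mice, all 8 genes had a log2 fold change below 0 between SNI-DMI and Sham-DMI (median -0.20), as 49.8% of all genes did. By edgeR 0 of the 8 were called, in a comparison that called 0.402% of all genes. At an unadjusted p under 0.05 there were 3 (Kcna2, Kcnb2 and Kcns1), and DESeq2 called 1, Kcns1, among 517 genes in all against 86 by edgeR. Kcns1 had a CPM of 92.7, 85.1, 84.0 and 76.5 in Sham-DMI and of 77.7, 74.8, 68.6 and 64.1 in SNI-DMI. Only the highest injured mouse reached the range of the sham mice, and the log2 fold change was -0.25 (95% interval -0.39 to -0.099, adjusted p = 0.180). It became a call without Sham-DMI replicate 4 (adjusted p = 0.0917). No member was lower with no overlap, as 2.15% of all genes were.

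Kcnb2 had a log2 fold change of -0.26 (95% interval -0.50 to -0.0100, adjusted p = 0.391) in the same comparison, with a CPM of 145, 229.6, 187 and 164 in Sham-DMI and of 162, 136, 168 and 142 in SNI-DMI. Kcna2 had one of -0.19 (95% interval -0.35 to -0.028, adjusted p = 0.335). Sham-DMI replicate 1 was the lowest of its group in both genes, and both were called without it (adjusted p = 0.0948 for Kcnb2 and 0.0851 for Kcna2), when the calls over all genes rose from 86 to 850. For Kcnd3 the value was -0.22 (95% interval -0.44 to 0.0061, adjusted p = 0.429), with 194, 224, 184 and 196 CPM in Sham-DMI and 154, 195, 189 and 149 CPM in SNI-DMI. The log2 fold changes of Kcna1, Kcnq3, Kcna4 and Kcns3 were -0.23, -0.11, -0.063 and -0.062.

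Averaged over both treatments, injury lowered 4 genes, namely Kcnb2 (log2 fold change -0.38, SE 0.0826, adjusted p = 0.0132), Kcnd3 (-0.27, SE 0.0754, adjusted p = 0.0328), Kcnq3 (-0.20, SE 0.0541, adjusted p = 0.0335) and Kcna2 (-0.18, SE 0.0537, adjusted p = 0.0467). Of all tested genes, this average called 16.1%, and it called 8.43% lower. Kcna2, the most abundant of the 8, was called here although neither of its separate injury comparisons passed. Its call was lost without any 1 of Sham-Saline replicates 1 and 3, SNI-Saline replicate 2 and Sham-DMI replicates 2 and 3 (adjusted p 0.103 to 0.124). Kcna4 was not called (-0.17, 95% interval -0.30 to -0.030, adjusted p = 0.113) by edgeR but was by DESeq2, which called 5 of the 8, and it became a call without any 1 of 4 mice, with an adjusted p of 0.0270 without Sham-Saline replicate 2, of 0.0548 without SNI-DMI replicate 2, of 0.0871 without Sham-DMI replicate 1 and of 0.0909 without Sham-DMI replicate 4. Kcna1 became one without Sham-DMI replicate 1 (adjusted p = 0.0267), and Kcns1 without Sham-DMI replicate 4 (adjusted p = 0.0773).

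**Figure D3:**
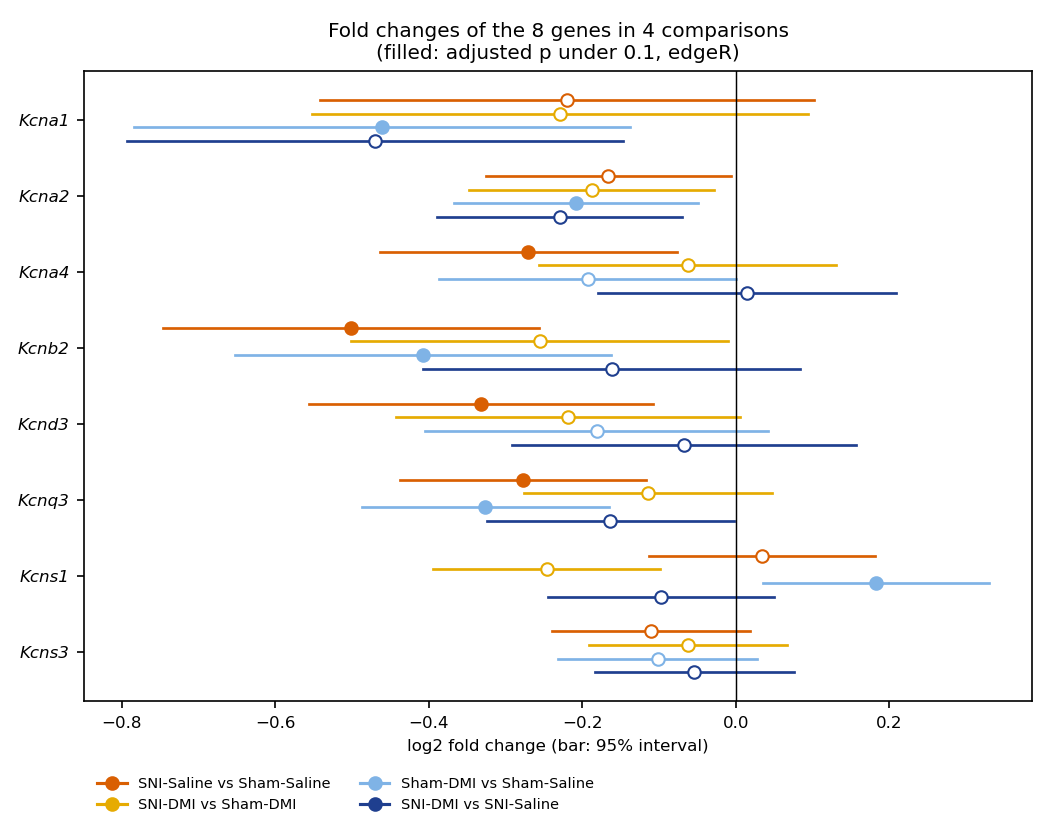
Log2 fold change of each of the 8 genes in 4 comparisons between groups of 4 mice (points), with 95% intervals from edgeR (bars) and filled points where the adjusted p was under 0.1. Of the 32 points, 4 are filled for injury under saline, 5 for DMI in sham mice, and none for the other comparisons.

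With DMI in sham-operated mice, 5 of the 8 genes were called. Kcnq3, Kcnb2, Kcna1 and Kcna2 were lower, by 13.4% to 27.3% in group means, and the modulatory subunit Kcns1 was higher, by 13.5%. Of all tested genes, 23.4% were called in this comparison and 11.9% were called lower, and it shares the Sham-Saline mice with the injury comparison under saline. The median log2 fold change of the 8 genes was -0.20, against -0.021 for all tested genes, which is likewise only a description.

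The M-current gene Kcnq3 had a CPM of 61.4, 75.3, 76.0 and 62.9 in Sham-DMI, below each of the 4 Sham-Saline mice (78.4 to 96.4). Its log2 fold change was -0.33 (SE 0.0765, adjusted p = 0.00895), and it was called in each fit that left out 1 mouse (adjusted p 0.00499 to 0.0414). Among all genes, 8.51% were lower in Sham-DMI with no overlap. For Kcnb2 the log2 value was -0.41 (SE 0.117, adjusted p = 0.0240), also called in each of those fits. Its Sham-DMI replicate 2 (229.6 CPM) lay within the Sham-Saline range of 214 to 281 CPM, and its other 3 mice lay below that range.

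Kcna1 and Kcna2 form mixed Kv1 channels in large myelinated sensory neurons. In Sham-DMI the CPM was 109.7, 207, 185 and 145 for Kcna1 and 542, 687, 630.2 and 593 for Kcna2. Replicate 1 was the lowest and replicate 2 the highest of this group in both genes, and also in Kcnb2. The log2 fold change was -0.46 for Kcna1 (SE 0.154, adjusted p = 0.0481) and -0.21 for Kcna2 (SE 0.0759, adjusted p = 0.0695). Kcna1 no longer passed when Sham-Saline replicate 1 or 3 or Sham-DMI replicate 1 or 4 was left out (adjusted p 0.109 to 0.166), and its log2 fold change moved to -0.30 without Sham-DMI replicate 1. Kcna2 no longer passed in 7 of the 16 fits that left out 1 mouse, namely replicates 1 and 3 of Sham-Saline, 1 of SNI-Saline, 1, 3 and 4 of Sham-DMI and 3 of SNI-DMI (adjusted p 0.103 to 0.262).

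Kcns1 rose with DMI in sham mice, and its log2 fold change was 0.18 (SE 0.0701, adjusted p = 0.0841). All 4 Sham-DMI mice were above all 4 Sham-Saline mice, but by little. The lowest of the former and the highest of the latter both rounded to 76.5 CPM. The share of all genes that were higher with no overlap was not counted. Kcns1 did not pass when Sham-Saline replicate 2, 3 or 4 or Sham-DMI replicate 1 or 3 was left out (adjusted p 0.105 to 0.182). The remaining genes were not called. Kcna4 was at 29.5 to 33.6 CPM in Sham-DMI (log2 fold change -0.19, 95% interval -0.39 to 0.00065, adjusted p = 0.165), Kcnd3 had a log2 fold change of -0.18 (95% interval -0.41 to 0.043, adjusted p = 0.267) and Kcns3 one of -0.10 (95% interval -0.23 to 0.027, adjusted p = 0.281). Without Sham-Saline replicate 2, the lowest sham mouse for both A-type genes, Kcna4 and Kcnd3 were also called lower (adjusted p = 0.0273 and 0.0634).

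With DMI after nerve injury, 0 of the 8 genes were called by edgeR, in a comparison that called 2.93% of all genes. At an unadjusted p under 0.05 there were 3 (Kcna1, Kcna2 and Kcnq3, all lower), and DESeq2 called 2, Kcna1 and Kcna2, among 1898 genes in all against 626 by edgeR. The 626 calls became 0 without any 1 of SNI-Saline replicates 1 and 3 and SNI-DMI replicates 1, 2 and 3, and 38 without SNI-Saline replicate 4. Kcna1 had a CPM of 168, 109.6, 144 and 129.5 in SNI-DMI, and each of these 4 mice was below each of the 4 SNI-Saline mice (176 to 219). The log2 fold change was -0.47 (SE 0.154, 95% interval -0.79 to -0.15, adjusted p = 0.125). This size is close to that in sham mice (-0.46). Genes lower in SNI-DMI with no overlap made up 5.97% of those tested, and Kcna1 was the only member among them.

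Kcna2 had a CPM of 581, 501, 576 and 496 in SNI-DMI, with only the highest above the lowest SNI-Saline mouse (578), and a log2 fold change of -0.23 (95% interval -0.39 to -0.070, adjusted p = 0.127). Kcna1 and Kcna2 both became calls without Sham-DMI replicate 1 (adjusted p = 0.0440 and 0.0689), and Kcna1 also without Sham-DMI replicate 2 (adjusted p = 0.0903), in fits where the calls over all genes rose from 626 to 1842 and 1213. These mice are in neither group of the comparison and enter through the shared estimate of the spread. Kcnq3 was at 63.5, 63.8, 63.2 and 63.97 CPM in SNI-DMI, with 1 SNI-Saline mouse (62.8) below all of them (log2 fold change -0.16, 95% interval -0.32 to -0.0026, adjusted p = 0.263). With 3645 to 4244 counts in these mice, such close values are not taken as a measure of the spread between mice. The other 5 genes had log2 fold changes between -0.16 (Kcnb2) and 0.015 (Kcna4).

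The size of the DMI effect was compared directly between injured and sham mice with the interaction term. It called 0 of the 8 genes, as it did for 0% of all genes by edgeR, and DESeq2 also called 0 of the 8. At an unadjusted p under 0.05 there was 1, Kcns1, whose DMI effect was lower by 0.28 on the log2 scale in SNI mice (95% interval of the difference -0.49 to -0.072, unadjusted p = 0.0112 and adjusted p = 0.619 by edgeR). For Kcna1 the difference was -0.0087, with an interval of -0.46 to 0.45, and for Kcnb2 it was 0.25 (-0.10 to 0.59).

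Averaged over both surgeries, DMI lowered Kcnq3 (log2 fold change -0.25, SE 0.0541, adjusted p = 0.00407), Kcna1 (-0.47, SE 0.109, adjusted p = 0.00567), Kcna2 (-0.22, SE 0.0537, adjusted p = 0.00762) and Kcnb2 (-0.28, SE 0.0825, adjusted p = 0.0192). All 4 held when any 1 mouse was left out. Of all tested genes, this average called 30.6%, and it called 15.8% lower. Kcna4 and Kcnd3 were added without Sham-Saline replicate 2 (adjusted p = 0.0901 and 0.0691).

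The fold changes of all genes followed the base composition of the transcripts in these libraries. With the tested genes divided by GC content into 5 classes of about equal size, the median log2 fold change in SNI-Saline versus Sham-Saline was -0.105 in the class with the lowest GC content and 0.049 in the class with the highest, and in Sham-DMI versus Sham-Saline these were -0.187 and 0.058. The longest transcript of Kcnb2 has a GC content of 39.3%, within the lowest class, those of Kcnq3, Kcna4 and Kcna2 have 44.4%, 44.8% and 45.8%, those of Kcns3, Kcnd3 and Kcna1 have 47.6%, 49.1% and 50.1%, and that of Kcns1 has 60.9%, within the highest class. With each library's trend on GC content and length removed, 1 of 8 genes was called for injury under saline, which was Kcnb2 at -0.25 on the log2 scale (adjusted p = 0.0550), while Kcnd3 was at -0.26, Kcna4 at -0.24 and Kcnq3 at -0.12 (adjusted p = 0.166, 0.189 and 0.279).

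For DMI in sham mice the trend removal also left 1 call, Kcna1 at -0.41 (adjusted p = 0.0702). Kcnb2 moved from -0.41 to -0.056, Kcna2 from -0.21 to -0.034 and Kcnq3 from -0.33 to -0.11 (adjusted p = 0.626, 0.726 and 0.249), and Kcns1 was at 0.15 (adjusted p = 0.137). Averaged over surgeries, Kcna1 was likewise the single member called (-0.44, adjusted p = 0.00863). For injury under DMI the removal made Kcns1 a call, lower at -0.37 (adjusted p = 0.0232). Averaged over treatments it kept Kcnb2 (-0.19, adjusted p = 0.0194) and Kcnd3 (-0.24, adjusted p = 0.0498), added Kcns1 (-0.20, adjusted p = 0.0203) and lost Kcnq3 and Kcna2 (adjusted p = 0.224 and 0.117). The removal took out GC content and exon length together, and their separate parts were not tested. Exon length was 15165 bases for Kcnb2, 14708 for Kcnq3, 11906 for Kcna2 and 9587 for Kcnd3. It was 4833 bases for Kcna4, 4780 for Kcna1, 3164 for Kcns3 and 2712 for Kcns1. A difference in transcripts and a difference in library composition that both follow GC content or length cannot be told apart here.

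**Figure D4:**
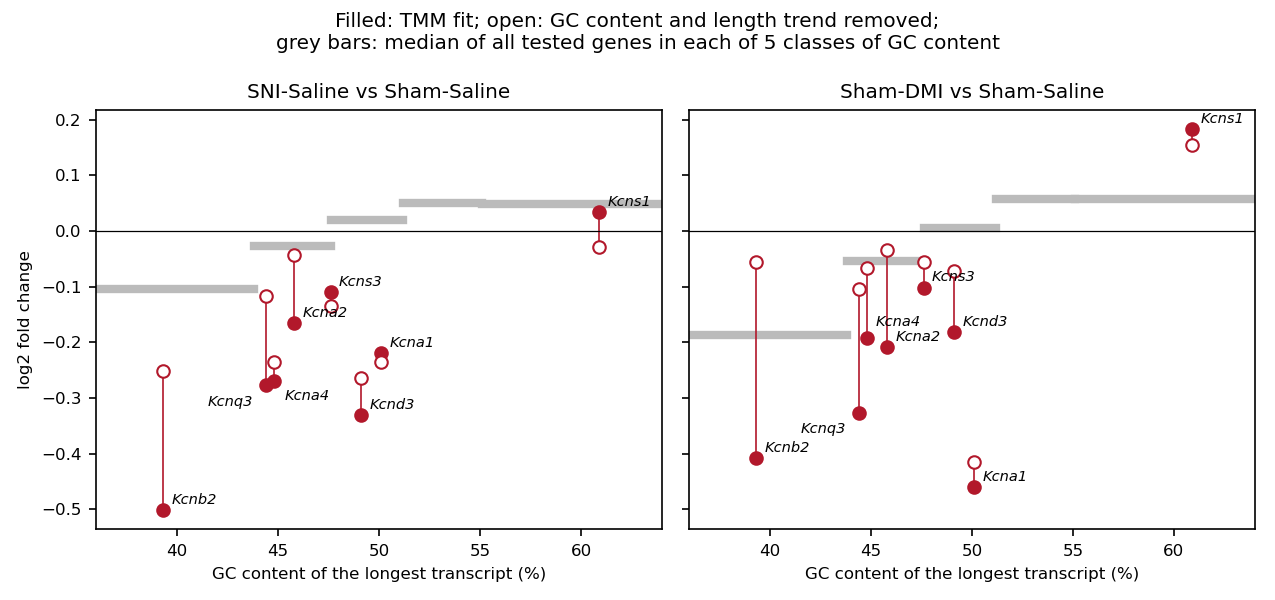
Log2 fold change of the 8 genes against the GC content (%) of their longest transcript, in the TMM-normalized fit (filled) and with each library's trend on GC content and length removed (open), with grey bars for the median of all tested genes in each of 5 classes of GC content (bars cut at the axis limits). Kcnb2 (39.3% GC) moves from -0.50 to -0.25 for injury (left) and from -0.41 to -0.056 for DMI in sham mice (right), and Kcna1 (50.1% GC) moves from -0.46 to -0.41 on the right.

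Among 32 other Kv pore-forming and modulatory subunit genes, 30 were testable, and 5 were lower after injury under saline (6.18% of all tested genes were) while none was higher. Their median log2 fold change was -0.15, with 25 of 30 below 0 (50.1% of all tested genes were). Among them, Kcnh7, an ERG-type channel gene, fell from a mean of 239 to 169 CPM (log2 fold change -0.50, SE 0.126, adjusted p = 0.0326). Kcnc2, a Kv3 channel gene, was at -0.38 (adjusted p = 0.0291), and the modulatory subunit genes Kcng3 and Kcns2 were at -1.07 and -0.57 (adjusted p = 0.0368 and 0.0968) from levels of 7.85 and 5.28 CPM in Sham-Saline. Leaving out Sham-Saline replicate 3 gave 1 call, SNI-Saline replicate 2 gave 2, SNI-Saline replicate 1 gave 3, and any 1 of the other mice gave 4 to 6.

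With DMI in sham mice, where 11.9% of all tested genes were lower, 2 of these 30 genes were, namely Kcnh7 (-0.55, SE 0.126, adjusted p = 0.00770) and Kcna3, a Kv1 gene at a low level (1.27 to 0.624 CPM, log2 fold change -1.02, SE 0.310, adjusted p = 0.0324). The median was -0.068, with 20 of 30 below 0 (53.3% of all tested genes were). Leaving out 1 mouse gave 1 call for Sham-Saline replicate 3 or Sham-DMI replicate 1. It gave 4 calls for Sham-Saline replicate 1 and 7 calls for Sham-DMI replicate 2. Neither the comparison of injury under DMI nor that of DMI after injury called any of the 30 by edgeR. At an unadjusted p under 0.05 there were 7 and 4, and DESeq2 called 1 and 2, with Kcnh7 in the latter. By edgeR, injury under DMI had 2 calls without Sham-DMI replicate 1 and 1 without Sham-DMI replicate 4, and DMI after injury had 2 without Sham-DMI replicate 1 or 2 and 1 without Sham-DMI replicate 4 or SNI-Saline replicate 2. Kcna7 and Kcnv2 were too low to test, at most 12 and 10 counts in a mouse.

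Auxiliary subunits bind Kv channels and change their traffic or gating, and 14 of 15 such genes were testable (Kcne1 had at most 1 count). After injury under saline, where 12% of all tested genes were called, 2 of the 14 were lower and none higher. Dpp10, a partner of Kv4 channels, was at -0.34 (SE 0.0801, adjusted p = 0.0240). Kcnab1, a beta subunit of Kv1 channels, was at -0.24 (SE 0.0803, adjusted p = 0.0794). The comparison of DMI in sham mice called 23.4% of all tested genes. With DMI in sham mice Dpp10 (-0.32, adjusted p = 0.0116) and Kcne4 (-0.55, adjusted p = 0.0362) were lower, and Kcnip3 (0.16, adjusted p = 0.0673) and Kcnip2 (0.22, adjusted p = 0.0956), which encode calcium-binding Kv4 partners, and Kcne5 (Kcne1l in the annotation, 0.43, adjusted p = 0.0794) were higher. Both other comparisons called 0 of 14 by edgeR, with 3 (injury under DMI) and 1 (DMI after injury) at an unadjusted p under 0.05, and DESeq2 called 1 in each, Dpp10.

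Of 10 genes of the scaffold that holds Kv1 channels at the juxtaparanode, Adam22 was lower after injury under saline (-0.23, SE 0.0767, adjusted p = 0.0841), and Lgi2, which encodes a secreted ligand of the ADAM22 family, was lower after injury under DMI (-0.27, SE 0.0570, adjusted p = 0.0715). With DMI in sham mice Dlg1 was lower (-0.24, adjusted p = 0.0225) and Lgi3 was higher (0.27, adjusted p = 0.0168). Of all tested genes, 12% were called for injury under saline, 0.402% for injury under DMI and 23.4% for DMI in sham mice. Cntnap2, which encodes the adhesion molecule CASPR2 that anchors Kv1 channels, was at -0.11 for injury under saline and -0.17 for DMI in sham mice (adjusted p = 0.447 and 0.165). It was at -0.21 for injury under DMI (adjusted p = 0.312) and at -0.27 for DMI after injury (SE 0.0832, adjusted p = 0.109), where all SNI-DMI mice lay below all SNI-Saline mice. DMI after injury called 0 of the 10 by edgeR, with 4 at an unadjusted p under 0.05, and DESeq2 called Cntnap2 and Dlg2 lower. Averaged over surgeries, edgeR called Cntnap2 lower with DMI (-0.22, adjusted p = 0.0110). Among 6 regulators known for acting on Kv genes in injured DRGs, the repressor gene Rest was lower with DMI in sham mice (-0.39, SE 0.121, adjusted p = 0.0356), and the other 3 comparisons called none, with 1 of 6 at an unadjusted p under 0.05 in each of them, while DESeq2 called Cebpb higher both after injury under DMI and with DMI after injury.

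Markers of other cells moved with the groups. Of all tested genes, 12% were called for injury under saline and 23.4% for DMI in sham mice. For DMI after injury 2.93% were, and for injury under DMI 0.402% were. In SNI-Saline 6 of 11 macrophage markers were higher than in Sham-Saline and none was lower, and their sum was 161 to 190.4 CPM in Sham-Saline and 209 to 377 CPM in SNI-Saline. In Sham-DMI 8 of 10 tested neutrophil markers were lower than in Sham-Saline, with sums of 5.79 to 19.6 CPM against 13.0 to 44.7 CPM, and after injury DMI lowered 2 of 10, with sums of 5.94 to 15.7 CPM in SNI-DMI and 19 to 56.2 CPM in SNI-Saline. Markers of injured neurons were also higher in Sham-DMI than in Sham-Saline, 7 of 12 being called and none lower (median log2 fold change 0.54), with sums of 475.5 to 521.7 CPM against 404.5 to 442.5 CPM. Gap43 and Jun made up most of these sums (medians over all mice of 295 and 99 CPM). Skeletal muscle markers had a median of 4.34 for injury under DMI, with 0 of 5 called by edgeR, and summed to 1.90 to 258 CPM in SNI-DMI (median 2.32) and 2.22 to 3.95 CPM in Sham-DMI. The neuronal marker sum was 11210 to 11820 CPM in Sham-Saline, 11250 to 12890 CPM in SNI-Saline and 11920 to 14130 CPM in Sham-DMI, and 5 of 13 neuronal markers were higher in Sham-DMI and none was lower. The 10 markers of large myelinated neurons summed to 5838 to 6748 CPM in Sham-Saline, 6496 to 7062 CPM in SNI-Saline and 6241 to 7762 CPM in Sham-DMI. Most of this sum was Nefh and Nefm (medians of 2410 and 3090 CPM), and of the 10 genes 2 were called lower and 1 higher after injury under saline, and 2 lower and 2 higher with DMI in sham mice. Of 9 markers of non-peptidergic nociceptors and C-fibre mechanoreceptors, 8 had a log2 fold change below 0 after injury under saline and 2 were called lower, with sums of 1130 to 1482 CPM in Sham-Saline and 1034 to 1204 CPM in SNI-Saline. No marker of these lists was at 0 in all mice. The part of cell composition in the Kv gene results was not tested, and in these bulk samples fewer cells of a type and less RNA per cell cannot be told apart.

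The genes whose log2 CPM followed each member most closely over the 16 mice differed between members. They were Stxbp5l, Garem1 and Epha6 for Kcna1 (Pearson r 0.986, 0.971 and 0.964), Ntrk3, Psd3 and Ccdc186 for Kcna2 (0.987, 0.976 and 0.975), Hecw1, Ccser2 and Ralgapb for Kcnb2 (0.988, 0.982 and 0.982) and Atl3, Tmod2 and Rrm2b for Kcnq3 (0.970, 0.969 and 0.966). For the A-type genes they were Ebf3, Ccdc141 and Arfgef2 for Kcna4 (0.894, 0.890 and 0.890) and Arfgef2, Tbc1d1 and Cdh11 for Kcnd3 (0.956, 0.951 and 0.946), with Arfgef2 in both. Kcns1 was followed by Kctd17, Apbb1 and Tti2 (0.907, 0.842 and 0.841), and Kcns3 less closely by Gm6970, Gm38577 and Pcsk1 (0.835, 0.832 and 0.811). The 16 points share groups, libraries and base composition. With the group means removed the first-named values were 0.980, 0.972, 0.984, 0.905, 0.816, 0.928, 0.880 and 0.739, in the order Kcna1, Kcna2, Kcnb2, Kcnq3, Kcna4, Kcnd3, Kcns1 and Kcns3. These are the highest values among 21371 genes and are given as a description.

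On mm10 (GRCm38), Kcna1 lies at chr6:126640397-126646384, Kcna2 at chr3:107101146-107115005, Kcna4 at chr2:107290639-107298502, Kcnb2 at chr1:15287254-15723750, Kcnd3 at chr3:105452330-105674002, Kcnq3 at chr15:65986387-66286642, Kcns1 at chr2:164163619-164171113 and Kcns3 at chr12:11090202-11151056. The antisense gene Kcnd3os shares 165 exon bases with Kcnd3, or 1.7% of its exon length, and had 26 to 73 counts per mouse against at least 7359 for Kcnd3. Whether the counting used strand is not stated, so reads in these bases cannot be assigned to either gene with certainty. Genes that overlap Kcnb2, Kcnq3 and Kcns3 share 0 exon bases with them, and no annotated gene overlaps Kcna1, Kcna2, Kcna4 or Kcns1.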

How the data were processed

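DRG RNA from 16 mice was made into stranded mRNA libraries and sequenced by the authors as 50-base read pairs. Per the labels and the paper, the authors used their NGS-Data-Charmer pipeline and the mm10 genome, and HISAT2, HTSeq and DESeq2 are named in the submitters' processing notes. The deposited values are whole-number counts per Ensembl gene without normalization. The annotation release and strand setting are not given in the sources used here. The 5 closing lines of each file (18.8% to 20.4% of read pairs, not assigned to 1 gene) were left out. Of 52636 genes, 52489 matched GENCODE M21, which gave symbols, exon lengths and GC content.

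The main test was edgeR 4.0.16 in R 4.3.3 (filterByExpr, 21371 genes; TMM; glmQLFit with 1 coefficient per group; glmQLFTest), with Benjamini-Hochberg adjustment over all tested genes and a threshold of 0.1. CPM uses TMM-scaled library sizes, and log2 CPM a prior count of 2. FPKM here is CPM per kilobase of exon. DESeq2 1.42.0, sva 3.50.0 and mgcv 1.9.3 (basis size 8) served alternatives, and the fit was tested on simulated data. The 8 genes and all lists were chosen with earlier results of these data known. Genes named beyond the 8 are those of the fixed lists with an adjusted p under 0.1 in a comparison of 2 groups, those that could not be tested, the 3 with the highest correlation per member, and a few (Cntnap2, Atf3, Cebpb) chosen after their values were seen. Some genes of the lists are counted but not reported by name here. Replicates are separate mice. Replicate numbers were not taken to pair the samples.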

Additional observations from a re-analysis of the deposited data

Results flagged for a closer look

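The Kcna4 level of Sham-Saline replicate 2 was 28.57 CPM, where the other 3 mice of the group lay at 36.8 to 38.1 CPM. The gap to the nearest mouse was 0.865 of the whole range of the group, above Dixon's 95% critical value of 0.829 for 4 samples. This was the single flag in 32 groups (8 genes in 4 groups), and chance flags about 1 in 20. The same mouse was also the lowest of its group for Kcnb2, Kcnd3, Kcnq3 and Kcna1. Without it the log2 fold change of Kcna4 for injury under saline was -0.36 (adjusted p = 0.0209, edgeR).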

How the results depend on the processing

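With the trend on GC content and length removed, 1 of the 8 genes was called for each of injury under saline, injury under DMI, DMI under sham and DMI averaged over surgeries (main values 4, 0, 5 and 4), and 1 other Kv subunit for injury under DMI (main 0). The same removal gave 3335 genes higher and 776 lower for DMI under sham among all genes (main 2475 and 2535), 45 and 3 for DMI under SNI (main 282 and 344) and 101 and 115 for injury under DMI (main 80 and 6, DESeq2 331 and 186). It also changed the sign of Kcns1 for injury under saline (-0.028) and for DMI averaged over surgeries (-0.017), of Kcnb2 for DMI under SNI (0.057) and averaged (0.00020), and of Kcna4 for DMI averaged (0.020), none of them called with it. By the study's nominal rule (unadjusted p under 0.05, and at least 0.32 up or down on the log2 scale), 2 of the 8 genes passed for injury under saline, 1 for DMI under SNI, 3 for DMI under sham and 1 for each average, and 3 other Kv subunits for injury under DMI and for DMI under SNI.

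DESeq2 called 1 of the 8 genes for injury under DMI and 2 for DMI under SNI, with 1 and 2 other Kv subunits. Without a filter on low counts these were 1 of the 8 for DMI under SNI, and 1 and 2 other Kv subunits, and with edgeR on the compared groups alone 2 of the 8 and 2 others for DMI under SNI. For DMI under SNI, 2 other Kv subunits were called with at least 10 counts in every sample, and 1 each with DESeq2's size factors and upper-quartile scaling. With 1 surrogate variable the difference between both DMI effects for Kcna1 was 0.031. The replicate numbers were not taken to pair the samples, since 5 of 24 same-number pairs, and not each of them, had a correlation of deviations over 0.1. As a hint from the data only, 7 of 16 samples correlated best with a sample of their own number, and the number due to chance was not worked out. The median correlation was 7.43e-06 for same-number pairs and 0.00137 for pairs with other numbers, and the highest values were 0.184 and 0.169. A replicate block gave 2 of the 8 genes for injury under saline (Kcnb2 and Kcnq3) and 1 other Kv subunit for DMI under SNI.

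Leaving out 1 mouse at a time gave 1 to 4 of the 8 genes for injury under saline, 0 to 2 for injury under DMI, 0 to 2 for DMI under SNI, 2 to 6 for DMI under sham, 3 to 6 and 4 to 6 for injury and DMI averaged, and 0 for the difference. For other Kv subunits these were 1 to 6, 0 to 2, 0 to 2 and 1 to 7. Over all genes the calls were 682 to 3286 for injury under saline, 17 to 850 for injury under DMI, 0 to 1842 for DMI under SNI and 3286 to 6094 for DMI under sham. Signs changed in these fits for values near 0, namely Kcns1 for injury under saline (-0.0092 to 0.094), Kcna4 (-0.067 to 0.080) and Kcns3 (-0.096 to 0.015) for DMI under SNI, and the difference between both DMI effects for Kcna1 (-0.17 to 0.13) and Kcna2 (-0.092 to 0.032). Of the other fold changes of the 8 genes, 1274 kept their sign and their side of the threshold (824 with 1 mouse left out and 450 under other alternatives), and 80 crossed it. The cause was not tested. Depth did not limit the 8 genes, which had at least 1215 counts in each mouse.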
